A study of Mus musculus with 2 samples.

Results

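The genes described here are the nuclear genes for the mitochondrial respiratory chain and the ATP synthase. They were taken by symbol, as the protein-coding nuclear genes whose names start with Nduf, Uqcr, Atp5 or Cox followed by a number, together with Sdha, Sdhb, Sdhc and Sdhd, without pseudogenes. This gave 102 genes of 43346 Ensembl genes in the tables, of which 21474 are protein-coding. By role, 36 are subunits of complex I, 4 of complex II, 8 of complex III, 20 of complex IV and 16 of the ATP synthase, and 18 are assembly factors or related proteins. Members lie on 19 chromosomes, 3 of them on the X. The rule uses symbols only and no measured value, and subunits with other symbols, such as Cyc1, fall outside it.

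The series holds 2 libraries of polyadenylated RNA from C57BL/6J mouse embryos at day 11.5, made from central nervous system tissue. Each library is labelled as a separate biological replicate made from pooled littermates of both sexes, and the labels give no dissection boundary and no treatment. Both belong to 1 group, so the study sets no condition against another, and the values below describe the tissue and the distance between the libraries, with no test. The labels do not say whether the replicates came from separate litters, so the spread may be partly technical.

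The respiratory chain passes electrons from NADH and succinate to oxygen through 4 membrane complexes and pumps protons across the inner mitochondrial membrane, and the ATP synthase uses the returning protons to make ATP. Most subunits are encoded in the nucleus and imported, while a few of the catalytic ones are encoded by mitochondrial DNA, so each complex except complex II is built from both genomes. Several complex IV and ATP synthase subunits come as paralogs, near-relatives encoded by separate genes, some used mainly in heart and skeletal muscle, in testis or at low oxygen.

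The libraries held 120461123 and 108006997 expected counts on Ensembl genes in replicates 1 and 2. They differed in composition beyond these genes. The 6 skeletal muscle markers had a summed level of 3.52 TPM in replicate 1 and 121 TPM in replicate 2 (TPM is a level per transcript, corrected for length and depth). The 3 Hox genes of posterior axial level summed to 1.55 and 82.8 TPM, and the 5 liver and yolk sac markers to 906 and 356 TPM. Of the neural markers, all 6 of progenitors and all 5 of neurons reached 1 TPM in both libraries. The 6 erythroid markers, led by embryonic globins, summed to 11603 and 18918 TPM. The globins and Alas2 were higher in replicate 2, while Gata1 (9.71 and 7.66 TPM) and Klf1 (20.1 and 10.9 TPM) were lower. The 6 heart markers summed to 328 and 287 TPM, the 6 neural progenitor markers to 3860 and 1930 TPM and the 5 neuron markers to 1324 and 1112 TPM. All 5 testis markers were at 0 in both. The part of these tissues in the results below was not tested, and in bulk RNA fewer cells of a type and less RNA per cell cannot be told apart.

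Of the 102 genes, 99 reached 1 TPM in both libraries, 93 reached 10 TPM and 63 reached 100 TPM. Among all 13047 protein-coding genes at 1 TPM or more in both libraries, 9.12% reached 100 TPM in both, against 61.8% of these 102. The median gene of the set stood at the 96.6th percentile of all protein-coding genes, and 76 of the 102 lay in the top 10%. The 102 genes together took 2.37% of the TPM of all Ensembl genes in replicate 1 and 2.31% in replicate 2. The 13 protein-coding genes of mitochondrial DNA, which encode the partner subunits, took 1.42% and 7.02% of TPM. Among them mt-Atp8 alone stood at 1340 and 30725 TPM, but on 3401 and 43783 counts, where mt-Co1 had 267417 and 718790. Of counts on Ensembl genes the 13 took 0.687% and 2.11%, and the 102 nuclear genes 1.00% and 0.977%. By either measure the mitochondrial share differed between the libraries far more than the nuclear one.

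**Figure D1:**
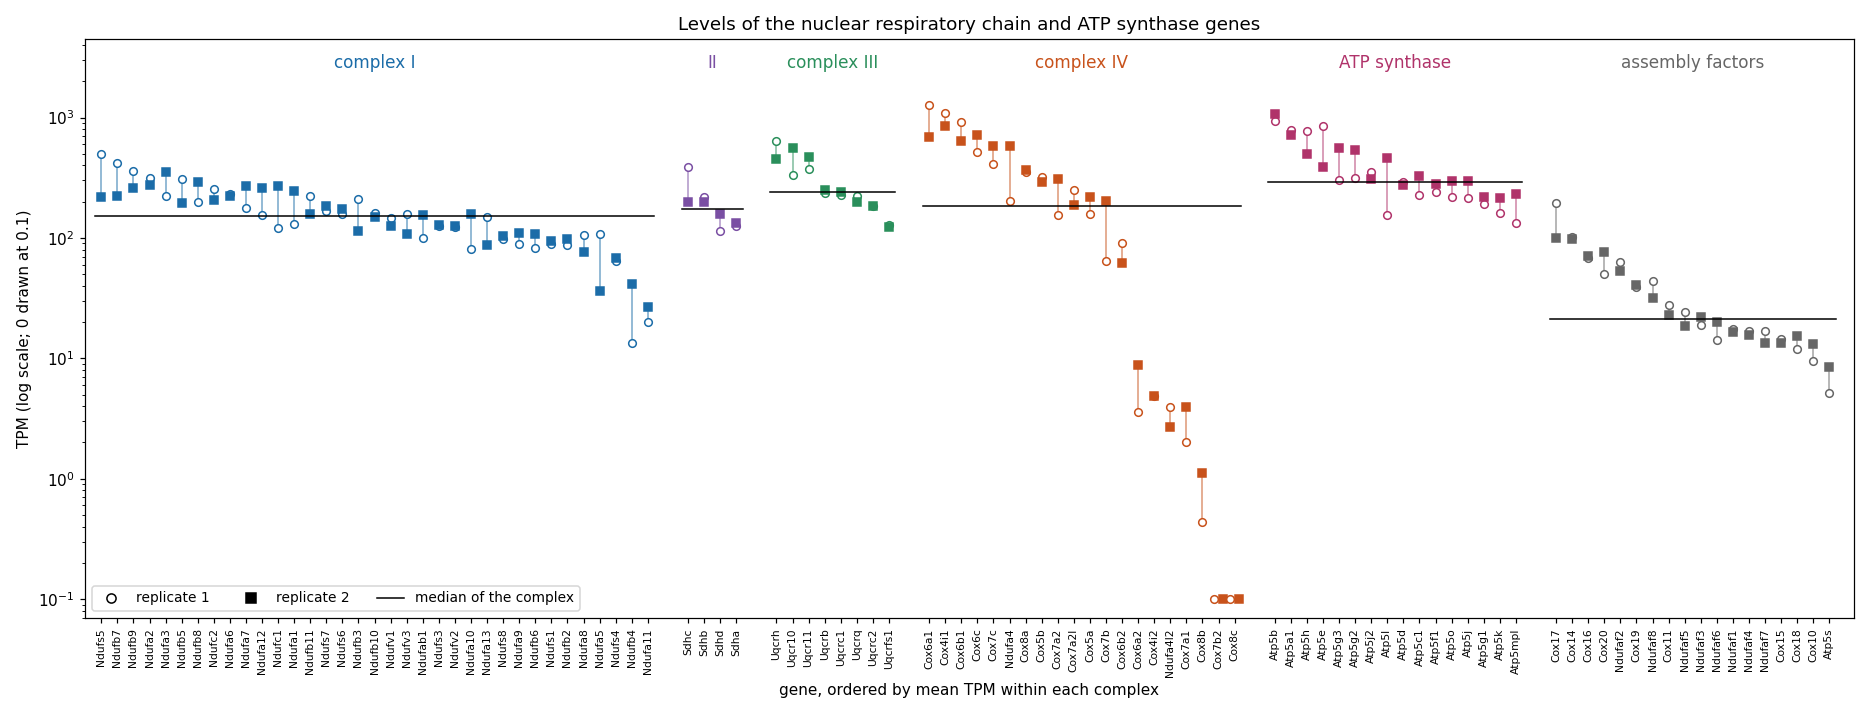
Level of 101 of the 102 genes in TPM (log scale, with a level of 0 drawn at 0.1), with replicate 1 as open circles and replicate 2 as filled squares, joined by a line, and the median of each complex as a black line. The ATP synthase has the highest median and no gene under 100 TPM, while the assembly factors have the lowest median and the 7 lowest genes all belong to complex IV.

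The ATP synthase had the highest median level, 266 TPM in replicate 1 and 317 TPM in replicate 2. Complex III followed with 231 and 245 TPM. Complex IV stood at 155 and 210 TPM, complex II at 172 and 178 TPM and complex I at 153 and 152 TPM. The medians of complexes II and IV were closer to each other than the spread of complex IV between libraries, so their order is not set. The assembly factors had a median of 21.6 and 21.2 TPM, and only Cox17 among them reached 100 TPM in both.

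In complex I, which takes electrons from NADH, the 7 nuclear core subunits carry the flavin and the iron-sulfur clusters or shape their path. These 7 lay close together, between 92.5 TPM for Ndufs1 and 175 TPM for Ndufs7. Ndufs7 stood at 166 TPM in replicate 1 and 185 TPM in replicate 2. Ndufv1, the flavin-binding subunit, stood at 145 and 126 TPM, and its partner Ndufv2 at 123 and 125 TPM. Ndufs3 stood at 126 and 128 TPM, Ndufs8 at 98.4 and 105 TPM and Ndufs1 at 89.8 and 95.1 TPM. Ndufs1 and Ndufs8 were the lowest of the 7 in both libraries.

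The 29 accessory subunits of complex I spread wider, from 23.3 TPM to 358 TPM on average. The highest was Ndufs5 with 496 and 221 TPM, and next came Ndufb7 with 419 and 223 TPM and Ndufb9 with 357 and 259 TPM. In these 3 genes replicate 1 was the higher. The lowest were Ndufb4 with 13.3 and 41.1 TPM and Ndufa11, a membrane arm subunit, with 19.9 and 26.8 TPM. Ndufb4 and Ndufs5 share sequence with pseudogenes that have counts of their own, so both levels are uncertain, as given further on.

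The other accessory subunits fell on both sides. Of the 29, 13 had a scaled count above that of replicate 1 in replicate 2 and 16 below. Ndufa3 stood at 223 and 355 TPM, Ndufc1 at 122 and 270 TPM and the X-linked Ndufa1 at 132 and 247 TPM, each higher in replicate 2. Ndufb5 stood at 309 and 194 TPM, Ndufa13 at 150 and 87.4 TPM and the other X-linked subunit Ndufb11 at 221 and 157 TPM, each higher in replicate 1. Ndufs4, a late-added subunit of the matrix arm, stood at 64.3 and 68.2 TPM and Ndufs6, which carries zinc, at 158 and 173 TPM, close in both. No direction held for the accessory subunits as a class.

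Complex II, succinate dehydrogenase, is the 1 complex made only from nuclear genes. Its catalytic subunits were Sdha, the flavoprotein, at 126 and 133 TPM, and Sdhb, the iron-sulfur protein, at 217 and 199 TPM. The membrane anchor Sdhc stood at 389 and 198 TPM and the other anchor Sdhd at 113 and 157 TPM. The anchors thus moved in opposite directions between the libraries, and the catalytic pair stayed close.

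Complex III moves electrons from ubiquinol to cytochrome c. All 8 of its genes were above 100 TPM in both libraries. The hinge protein Uqcrh was highest at 642 and 456 TPM, followed by Uqcr10 at 333 and 563 TPM and Uqcr11 at 377 and 466 TPM. The core proteins Uqcrc1 and Uqcrc2 stood at 228 and 239 TPM and at 185 and 182 TPM. The Rieske iron-sulfur protein Uqcrfs1 was lowest at 129 and 123 TPM.

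Complex IV, cytochrome c oxidase, held some of the highest and all 7 of the lowest genes of the set. Cox6a1 stood at 1276 and 682 TPM, Cox4i1 at 1098 and 851 TPM and Cox6b1 at 918 and 644 TPM, each higher in replicate 1. Cox5a and Cox5b, which cover the matrix side, stood at 157 and 219 TPM and at 318 and 293 TPM. Among the rest, Cox6c stood at 513 and 711 TPM, Cox7c at 410 and 576 TPM and Ndufa4, once counted with complex I, at 204 and 579 TPM. Cox7b2 and Cox8c had a count of 0 in both libraries, which allows up to 0.0249 and 0.0278 CPM (3 counts; counting error only).

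In the ATP synthase, the catalytic head is formed by alpha and beta subunits around the gamma shaft. The beta subunit Atp5b was highest at 936 and 1061 TPM and the alpha subunit Atp5a1 followed at 786 and 718 TPM. The gamma subunit Atp5c1 stood at 227 and 324 TPM, the delta subunit Atp5d at 294 and 276 TPM and the epsilon subunit Atp5e at 846 and 392 TPM. The stalk subunit Atp5h stood at 775 and 499 TPM, while the other stalk genes Atp5f1, Atp5j and Atp5o averaged 259, 255 and 258 TPM. The lowest were the small membrane subunits Atp5k at 162 and 215 TPM and Atp5mpl at 133 and 230 TPM. Alpha and beta differed little between the libraries, and of alpha, beta, gamma, delta and epsilon it was epsilon that differed most.

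The assembly factors build these complexes without staying in them. The copper chaperone Cox17 was highest at 194 and 100.3 TPM, followed by Cox14 at 102 and 97.5 TPM and Cox16 at 68.3 and 70.2 TPM. Cox10, which makes heme for complex IV, stood at 9.58 and 13.0 TPM, and Atp5s, named as an ATP synthase coupling factor, was lowest at 5.13 and 8.46 TPM. The 8 Ndufaf genes, factors for complex I, ranged from 15.2 TPM for Ndufaf7 to 58.0 TPM for Ndufaf2. Of 26 further assembly genes with other symbols, all reached 1 TPM in both libraries, with medians of 21.9 and 23.4 TPM. Among them Uqcc2, a complex III factor, stood at 214 and 186 TPM, Surf1, a complex IV factor, at 43.1 and 45.9 TPM, and the copper proteins Sco1 and Sco2 at 5.85 and 8.30 TPM and at 11.8 and 13.9 TPM. Assembly genes under either kind of name were thus mostly below the subunits they serve. Cox16 and Cox17 overlap readthrough genes on the same strand, so part of their reads could be assigned either way.

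In 5 of the 7 paralog groups of complex IV 1 form made up nearly all of the RNA. Cox4i1 made up 99.5% of the Cox4 pair and Cox4i2, the form described at low oxygen and in lung, stood at 4.83 and 4.82 TPM. Cox6a1, the form of most tissues, made up 99.2% ± 0.700 (SD, n = 2), and the heart and muscle form Cox6a2 stood at 3.57 and 8.77 TPM. Cox8a made up 99.8%, with the muscle form Cox8b at 0.440 and 1.11 TPM and Cox8c at 0. Cox7b was the whole of its pair, since Cox7b2, known from testis, was at 0. Ndufa4 made up 98.8% ± 1.00 beside Ndufa4l2, a gene known to respond to low oxygen, at 3.91 and 2.71 TPM.

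In the Cox6b and Cox7a groups another form was also well above 10 TPM. Cox6b2, described as a testis form, stood at 90.0 and 61.5 TPM and made up 8.82% ± 0.143 of its pair, although all 5 testis markers were at 0. The deposited mm9 junction list of the series had 2556 reads over Cox6b2 and the mm9 gene table gave it 3.54% of the pair. Of the Cox7a group, the muscle form Cox7a1 stood at 2.00 and 3.92 TPM. Cox7a2 stood at 154 and 306 TPM and Cox7a2l, a related protein that helps complexes III and IV associate, at 248 and 186 TPM. By TPM, which of these 2 was the higher therefore differed between the libraries. The mm9 gene table gave Cox7a2 47.4% and Cox7a2l 52.2% of the group, while mm9 junction reads gave 85.7% and 13.8%. Cox7a2l also shares sequence with a pseudogene, Gm6969, which had 5.12 and 3.10 counts.

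Muscle forms can be read beside the muscle markers. Cox6a2, Cox7a1 and Cox8b had 147, 32 and 7 counts in replicate 1 and 301, 50 and 14 in replicate 2, where the summed skeletal muscle markers were 3.52 and 121 TPM. On scaled counts Cox6a2 was 2.09-fold higher in replicate 2 (interval for counting error 1.71 to 2.57) and Cox7a1 1.60-fold higher (1.004 to 2.57). Cox8b was 2.04-fold higher, but on so few counts its interval of 0.77 to 5.98 includes no difference. In TPM Cox6a2 stood at 3.57 and 8.77, a smaller relative change than that of the summed skeletal muscle markers. The heart markers summed to 328 and 287 TPM but did not move together. In replicate 2 Myl7 (48.3 and 91.6 TPM) and Myh6 (12.2 and 15.2 TPM) were higher. Nppa (80.4 and 72.1 TPM), Tnnt2 (147 and 83.7 TPM) and Tnni3 (39.7 and 24.3 TPM) were lower, and Ckmt2 was under 1 TPM in both. The part of muscle in the counts of the 3 forms was not tested.

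The c subunit, which forms the rotating ring of the ATP synthase, is encoded by Atp5g1, Atp5g2 and Atp5g3, whose mature products are the same protein. The stretch below shows where their coding sequences part even so. It is bases 61 to 150 of the last 228 coding bases, read 5′ to 3′ from GENCODE M21, with capitals where the 3 genes do not all have the same base. The genes lie at chr11:96068852-96075670, chr15:102662864-102672352 and chr2:73908447-73911326 in mm10, each on the minus strand.
Atp5g1: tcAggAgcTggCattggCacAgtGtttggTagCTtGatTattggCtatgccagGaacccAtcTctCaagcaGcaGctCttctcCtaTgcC
Atp5g2: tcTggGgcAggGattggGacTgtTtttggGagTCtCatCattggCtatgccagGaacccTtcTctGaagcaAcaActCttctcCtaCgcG
Atp5g3: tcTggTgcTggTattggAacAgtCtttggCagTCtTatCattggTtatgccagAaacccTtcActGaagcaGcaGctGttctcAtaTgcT
Over the 228 bases Atp5g1 and Atp5g2 differed at 34, Atp5g1 and Atp5g3 at 46 and Atp5g2 and Atp5g3 at 49. The longest run in which any pair was the same was 21 bases, between Atp5g1 and Atp5g2, so a read of 101 bases in this stretch differs between the 3 genes.

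In the mm10 tables Atp5g1 stood at 191 and 218 TPM, Atp5g2 at 312 and 542 TPM and Atp5g3 at 301 and 563 TPM. By TPM the genes made up 20.1% ± 5.14, 39.9% ± 1.55 and 40.0% ± 3.59 of c subunit RNA. The mm9 tables gave another order. Their mean RPKM was 3.71 for Atp5g1, 6.80 for Atp5g2 and 41.6 for Atp5g3, which is 79.8% for Atp5g3, and junction reads were 746, 929 and 33184, which is 95.2% for Atp5g3. Atp5g1 and Atp5g2 each have processed pseudogenes, described next, and Atp5g3 shares no window with another gene. The share of each gene therefore depends on the deposited table used.

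**Figure D2:**
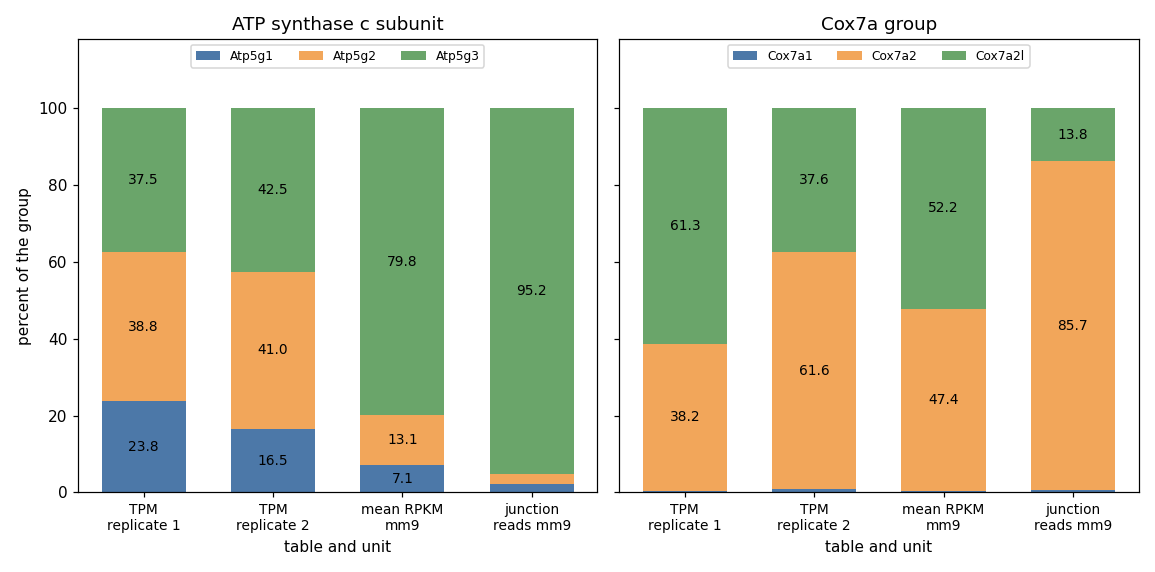
Share of each gene in the RNA of the ATP synthase c subunit (left) and of the Cox7a group (right), in percent, from TPM in each mm10 library, from the mean RPKM of the mm9 table and from mm9 junction reads. Atp5g3 goes from 37.5% and 42.5% of TPM to 79.8% of RPKM and 95.2% of junction reads, and the Cox7a2 share lies between 38.2% and 85.7%.

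Many of these genes have processed pseudogenes, intron-free copies of their RNA put back into the genome. The major transcript of 23 of the 102 genes shared at least 1 window of 101 bases, the read length, with another annotated gene, and 15 shared 20 windows or more with pseudogenes that have a row in the tables. The pairs below show how close the copies are. Each pair is 75 bases of coding sequence and of the copy, read 5′ to 3′ from GENCODE M21, with capitals where they differ. Cox7c lies at chr13:86044816-86046904 and its copy Gm12338 at chr11:75599763-75599954, Atp5l at chr9:44912557-44920742 and its copy Gm10221 at chr5:24581554-24581862, and Ndufs5 at chr4:123712710-123718202 and its copy BC002163 at chr16:42955631-42955949 (mm10).
Cox7c: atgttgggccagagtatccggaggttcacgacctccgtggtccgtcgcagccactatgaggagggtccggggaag
Gm12338: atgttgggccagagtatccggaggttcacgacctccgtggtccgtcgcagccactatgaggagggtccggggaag
Atp5l: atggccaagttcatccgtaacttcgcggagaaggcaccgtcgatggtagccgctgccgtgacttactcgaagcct
Gm10221: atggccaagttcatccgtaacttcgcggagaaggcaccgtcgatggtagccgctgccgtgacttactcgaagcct
Ndufs5: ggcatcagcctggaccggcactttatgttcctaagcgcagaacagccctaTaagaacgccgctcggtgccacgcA
BC002163: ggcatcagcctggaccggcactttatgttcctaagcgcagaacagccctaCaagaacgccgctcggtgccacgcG
Over the length compared, Gm12338 matched all 192 coding bases of Cox7c, Gm10221 matched 309 of 309 bases of Atp5l and BC002163 differed from Ndufs5 at 2 of 319. Ndufb4c matched Ndufb4 at all 390 bases, and Gm15920 differed from Ndufa12, a complex I accessory subunit, at 2 of 402.

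These copies had counts, and the split between gene and copy changed from library to library. Cox7c had 12824 expected counts in replicate 1 and 14830 in replicate 2, while its copies had 6066 and 640. The copies thus took 32.1% of the sum in replicate 1 and 4.13% in replicate 2. Atp5l had 4440 and 10827 counts beside 3802 and 335 on its 3 copies, which took 46.1% and 3.0%. Ndufa12 had 5456 and 7564 counts beside 1751 and 256, and Ndufs5 had 10362 and 5386 beside 952 and 46.2. For these 4 genes the copies' share was higher in replicate 1.

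Ndufb4 is the 1 gene whose copy had more counts than the gene itself. It had 695 and 2169 counts and Ndufb4c had 1337 and 2562, or 65.8% and 54.1% of the sum. Here both gene and copy were higher in replicate 2. For the other 10 of the 15 genes the copies took at most 2.26% of the sum in either library.

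**Figure D3:**
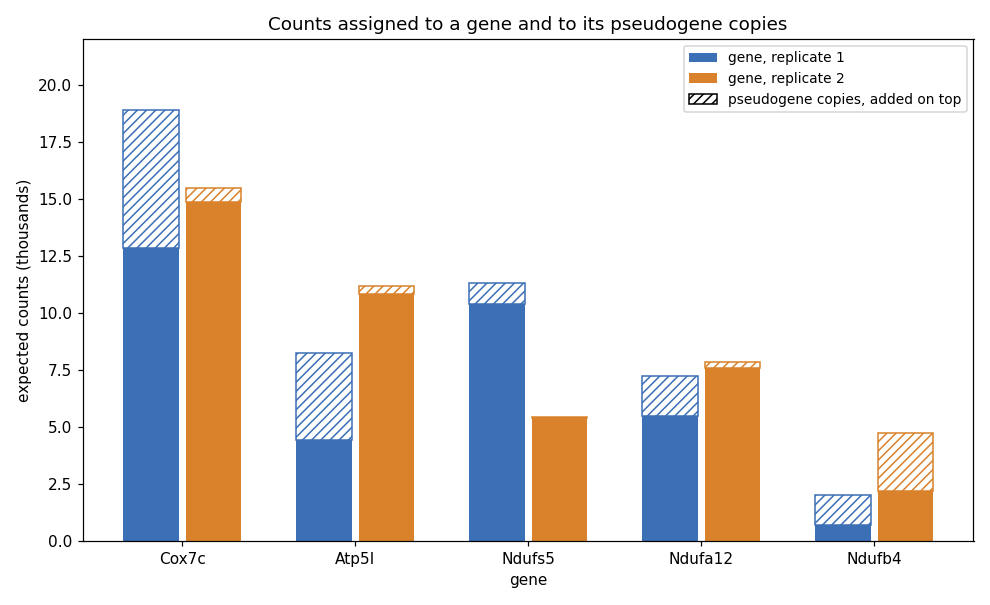
Expected counts, in units of 1000, for 5 genes (solid bars) with the counts of their pseudogene copies added on top (hatched), for replicate 1 in blue and replicate 2 in orange. The hatched part of Cox7c, Atp5l, Ndufa12 and Ndufs5 is larger in replicate 1 than in replicate 2, while for Ndufb4 it is larger than the solid bar in both.

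The mm9 junction list gives reads that cross a splice site, which an intron-free copy lacks. Per 1000 mm10 counts, the 83 genes with no such pseudogene had a median of 1052 junction reads, with quartiles of 708 and 1329. The 15 genes with copies had a median of 148. The lowest were Atp5g2 with 25.7, Ndufs5 with 40.3, Atp5g1 with 41.9, Cox7c with 58.5, Atp5l with 64.7, Ndufab1 with 83.2 and Ndufb4 with 97.4. Below 200 stood 9 of the 15 genes with copies and 1 of the 83 without, the 2-exon gene Uqcrfs1 with 150. The mm9 RPKM differed in the same direction, with a median of 3.82 per 100 TPM in genes with copies and 9.82 in the others. How the mm9 tables treated reads that match several places is not given in the sources used here, and its part in these values was not tested.

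**Figure D4:**
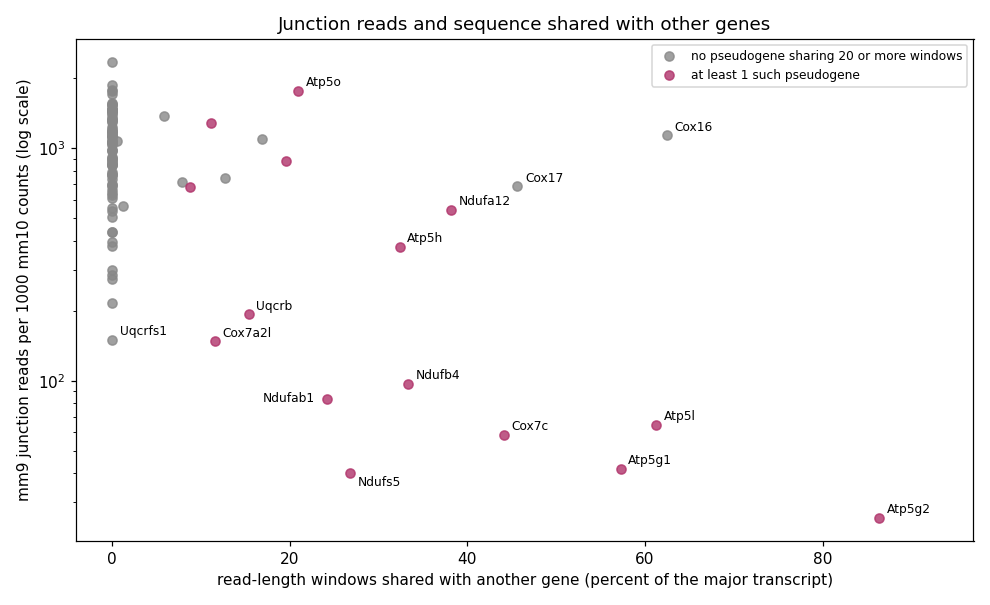
Junction reads in the mm9 list per 1000 expected counts in the mm10 tables (log scale) against the percent of 101-base windows of the major transcript shared with another annotated gene, 1 point for each of the 98 genes with 100 counts or more. Genes with pseudogene copies (red) reach down to 25.7 at Atp5g2, while Cox16 and Cox17, which share windows with readthrough genes, lie with the rest.

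Between the libraries, 5 of the 98 genes with at least 100 summed counts were 2-fold or more higher in replicate 2 (5.10%), where 6.35% of all 16508 genes were. At the same size 4 were lower in replicate 2 (4.08%), where 5.05% of all genes were. These shares are near the background of all genes. Over the 98 genes the median log2 ratio of replicate 2 over replicate 1 was -0.13, with 43 genes above 0 and 55 below, and over all 15036 genes at a mean of 1 CPM (counts scaled to library size) or more it was -0.02. Complex medians were -0.22 for complex I, -0.25 for complex II, -0.14 for complex III, -0.21 for complex IV, 0.14 for the ATP synthase and -0.19 for the assembly factors. On log2(TPM + 1), where the median of all genes was 0.12, the medians of complexes I, III and IV were above 0.

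**Figure D5:**
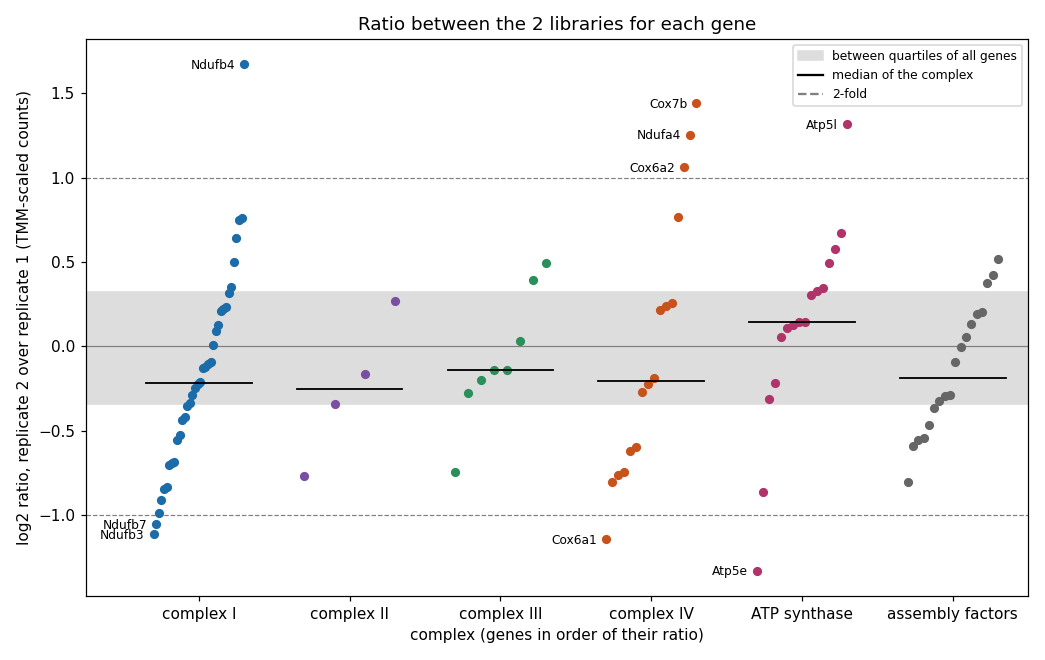
Log2 ratio of replicate 2 over replicate 1 on TMM-scaled counts for the 98 genes with 100 counts or more, ordered within each complex, with the median of the complex (black), 2-fold lines (dashed) and the range between the quartiles of all genes (grey, from -0.34 to 0.32). The 9 genes beyond 2-fold are named, and the ATP synthase has the 1 complex median above 0.

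The 5 genes higher in replicate 2 came from complexes I and IV and the ATP synthase. Ndufb4 was 3.19-fold higher (695 and 2169 counts, 95% interval 2.93 to 3.48), and with its copy added the log2 ratio was 1.25 in place of 1.67. Cox7b, a small complex IV subunit on the X chromosome at chrX:106015700-106022450, had 4263 and 11331 counts and was 2.72-fold higher (2.62 to 2.81). Ndufa4, at chr6:11900292-11907497, had 5496 and 12827 counts and was 2.38-fold higher (2.31 to 2.46). The membrane subunit Atp5l was 2.49-fold higher (2.41 to 2.58), and with its copies added the log2 ratio was 0.47 in place of 1.32. Cox6a2 was 2.09-fold higher (1.71 to 2.57). All intervals are exact binomial and cover counting error between these libraries only.

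The 4 genes lower in replicate 2 were Atp5e, Cox6a1, Ndufb3 and Ndufb7. Atp5e, at chr2:174461072-174464105, had 18021 and 7020 counts and was 2.51-fold lower (2.44 to 2.58). Cox6a1, at chr5:115345642-115348981, had 43022 and 19083 counts and was 2.21-fold lower (2.17 to 2.24). The complex I accessory genes Ndufb3 and Ndufb7 had 10640 and 4814 and 16779 and 7917 counts, 2.16-fold and 2.07-fold lower. Ndufb7 was past the 2-fold line by little and Ndufa13, an accessory subunit at -0.99, just short of it. None of these 4 has a pseudogene copy with 20 shared windows.

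The mm9 table holds a first and a second RPKM for each gene, not tied to a replicate, so only the distance between them can be read. The first and second values were 135 and 65.6 for Cox6a1, 66.2 and 25.1 for Atp5e, 17.4 and 44.2 for Ndufa4 and 20.8 and 38.4 for Cox7b, so these genes were far apart there too. They were 5.02 and 7.79 for Atp5l and 1.94 and 1.89 for Ndufb4, which have pseudogene copies, and these pairs were closer than in the mm10 counts. Across the 98 genes the Spearman correlation of mean RPKM with mean TPM was 0.83, and over the 75 that share no window it was 0.91. Both are across genes, which are not independent replicates.

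Members are short, and the short ones differed more between the libraries. Among the 94 genes at a mean of 10 TPM or more, 8 of 64 under 1000 bases were past 2-fold in either direction (12.5%), where 12.9% of 876 protein-coding genes of that length and level were. Of the 30 longer ones none was, where 4.7% of 8166 were. The 7 core subunits of complex I had an SD of log2 ratios of 0.12, and the 29 accessory subunits one of 0.66. On TMM-scaled counts the 7 core ratios lay between -0.42 and -0.09, all below 0, where 7709 of 15036 genes were below 0. On log2(TPM + 1) the median of the 7 was 0.03, so the sign depends on the scaling. Base composition also moved with the ratio. The Spearman correlation of percent GC with the log2 ratio was -0.24 over the 98 genes and -0.25 over 14994 genes, each from the same 2 libraries, given as a description, and its part in single ratios was not tested.

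Of 70 genes at 10 TPM or more with several annotated transcripts, 60 had the same major transcript in both libraries. Their major transcript held 84.5% of the gene in the median. The highest shares were 99.7% for Cox7a2l, 99.2% for Ndufc2 and 99.1% for Cox6a1, and the lowest were 26.5% for Cox18, 29.7% for Ndufab1 and 31.4% for Ndufa5. Ndufv3, a complex I subunit with a known long form, had 86.6% and 78.6% in its 3-exon transcript and 11.1% and 18.6% in the 4-exon one of 1537 bases. Atp5c1 had 85.9% and 87.0% in the 10-exon transcript and 12.7% and 12.3% in a 9-exon one, close in both libraries.

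In 2 genes, Ndufa10 and Ndufa5, the log2 ratios from TPM and from counts were at least 0.5 apart, while 10 genes had another major transcript in each library. Ndufa10 had 9310 and 9159 counts, a log2 ratio of 0.01, but 81.4 and 157 TPM, as a 248-base transcript went from 5.2% to 35.9% of the gene. Ndufa5 had 2269 and 1235 counts, a log2 ratio of -0.85, but 108 and 35.9 TPM, as its 433-base transcript went from 56% to 6.9%. Uqcrc2 had 14409 and 18494 counts with near-equal TPM, as a 456-base transcript went from 40.5% to 1.64%. These lengths are the ones in the deposited transcript tables.

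Promoters were searched for the core motifs of 3 factors known to act on these genes, on both strands, in 250 bases before to 50 after each RefSeq start in GRCm38.p6. Of the 102 genes 81 matched, with 87 promoters. The NRF1 motif, GCGCA then any base then GCGC, stood in 20 of them (23.0%), against 4.60% of all 32851 promoters and 11.3% of the 8818 promoters of protein-coding genes at 10 TPM or more in both libraries. The ETS motif CCGGAAG, read by GABPA, stood in 27.6%, against 8.86% and 19.8%. The YY1 motif AAGATGGC stood in 13.8%, against 2.75% and 5.25%. At least 1 of the 3 stood in 54.0%, against 14.7% and 32.1%, and the TATAAA hexamer in 10.3%, against 13.6% and 6.40%. A match shows only that the letters are there.

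The stretches below show such matches, in capitals, in promoters of 6 genes described above, chosen to show 1 or more examples of each motif, each read 5′ to 3′ on the gene's minus strand. They lie at chr5:115349091-115349140 (Cox6a1, NRF1), chr15:102671060-102671109 (Atp5g2, NRF1), chr9:50603899-50603948 (Sdhd, NRF1), chr16:84835037-84835084 (Atp5j, YY1), chr9:44920928-44920974 (Atp5l, ETS) and chr4:116075071-116075100 (Uqcrh, ETS).
Cox6a1: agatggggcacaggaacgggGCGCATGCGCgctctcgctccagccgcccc
Atp5g2: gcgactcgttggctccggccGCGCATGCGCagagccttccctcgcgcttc
Sdhd: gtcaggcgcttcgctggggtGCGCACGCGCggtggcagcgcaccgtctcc
Atp5j: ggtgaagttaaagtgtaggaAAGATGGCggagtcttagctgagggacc
Atp5l: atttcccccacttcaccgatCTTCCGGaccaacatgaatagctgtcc
Uqcrh: actacgaggagtatgccgcaCTTCCGGcca
The ETS letters of Atp5l and Uqcrh are on the opposite strand and read CTTCCGG here. In Uqcrh the match ended 4 bases before the start site.

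Genes for 2 of the factors, Nrf1 and Gabpa, and for other parts of the pathway were measured. Nrf1 stood at 55.1 and 63.3 TPM and Gabpa at 34.4 and 35.6 TPM. The coactivators Ppargc1a and Ppargc1b were low, at 2.08 and 2.28 TPM and 0.820 and 0.610 TPM. Cyc1, the cytochrome c1 subunit of complex III whose symbol lies outside the rule, stood at 206 and 246 TPM, and the carrier Cycs at 44.1 and 42.3 TPM. Of 45 other pathway genes 44 reached 1 TPM in both libraries. By scaled counts none was 2-fold higher in replicate 2 and 2 were 2-fold lower, where 6.35% and 5.05% of all 16508 genes were. The 2 lower genes were Atpif1, the inhibitor of the ATP synthase, at 1566 and 713 TPM, and the nuclear receptor Esrra at 29.9 and 16.7 TPM. Their log2 ratios on scaled counts were -1.34 and -1.09. On log2(TPM + 1) Esrra was at -0.81, short of 2-fold, and the assembly gene Coa7 at -1.22, past it.

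The mitochondrially encoded partners moved apart from the nuclear genes. Their median level was 704 TPM in replicate 1 and 2482 TPM in replicate 2. By scaled counts 10 of 13 (76.9%) were 2-fold or more higher in replicate 2, where 6.35% of all 16508 genes were. Only mt-Nd6 was lower, at a log2 ratio of -2.39, where 5.05% of all genes were 2-fold or more lower. The ATP synthase subunit mt-Atp6 had 12262 and 161241 counts, whereas Atp5a1 had 125720 and 105849 and Atp5b 117824 and 119776. The complex IV subunit mt-Co1 had 267417 and 718790 counts beside 53142 and 34449 for Cox4i1. The nuclear genes had no such difference as a set, with the median log2 ratio of -0.13 given above, and what sets the mitochondrial level apart was not tested.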

How the data were processed

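Polyadenylated RNA of 2 libraries was analysed as deposited. The authors deposited an expected count, TPM and FPKM per gene on mm10 with annotation M4, per the file headers and notes. They also deposited a posterior SD of the count and TPM bounds (signal values in reads and TPM, per the file headers), which were not printed. The aligner and quantifier behind these tables were not given in the sources used here. A deposited mm9 gene table (RPKM) and junction list (reads) hold a first and a second value that no label ties to a replicate, so means and sums were used. Symbols, coordinates and sequences came from GENCODE M21, and promoters from RefSeq (GRCm38.p6).

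Expected counts were rounded, then scaled by TMM (edgeR 4.0.16) or, as an alternative, by DESeq2 1.42.0 size factors. Log2 ratios used a prior count of 0.5 and genes at a mean of 1 CPM or more, and 2-fold calls a summed count of at least 100. The code for the calls was run on simulated counts with planted changes and counting error only. That checks the code, not the calls in these 2 libraries. With 1 group no p-value was computed. Genes were named by a rule: the 3 highest and 2 lowest of each complex, core subunits, paralog groups, genes past 2-fold and the 3 highest and lowest transcript shares. Ndufa10, Ndufa13, Ndufv3 and other genes outside it were added after their values were seen. A gene that the rule names is not reported here. Members and lists were chosen with earlier results of these data known.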

Additional observations from a re-analysis of the deposited data

How the results depend on the processing

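With n = 2 in 1 group, the spread between libraries is the only error, and intervals on counts cover counting error only. No paired analysis was possible because both libraries belong to 1 group. Levels in FPKM are on a smaller scale: the medians were 102 (complex I), 116 (complex II), 159 (complex III), 122 (complex IV), 194 (ATP synthase), 14.3 (assembly factors) and 111 (all 102 genes). Counts per kilobase of annotated length, scaled to library size, gave 78.8, 104, 128, 96.0, 159, 12.4 and 83.2 in the same order, and put complex II above complex IV. Without genes under 1 TPM the complex IV median was 248 TPM. The median log2 ratios under plain CPM were -0.093, -0.13, -0.012, -0.079, 0.27, -0.063 and -0.0058, and on log2(TPM + 1) 0.054, -0.026, 0.024, 0.027, 0.31, -0.070 and 0.047. For complex IV the median was 0.031 without the filter on low counts and -0.057 after genes were centred in 20 bins of GC content. At 1.5-fold 10 genes were higher and 21 lower in replicate 2. The share of all genes at 1.5-fold was not computed, so this split cannot be set against a background. Leaving out genes that share windows left 3 higher, and GC bins left 2 lower. In mm9 RPKM the shares of Atp5g3, Cox4i1 and Cox6b1 were 79.8%, 99.2% and 96.5%. The median major transcript share was 84.9% and 87.5% with 1 library each. With copies added Atp5l was under 2-fold, Ndufs5 passed it at -1.03, which made 5 genes lower, and the log2 ratio of Cox7c went from 0.24 to -0.26. Cox6a1, Ndufb3 and Ndufb7 were under 2-fold on log2(TPM + 1), Ndufb3 and Ndufb7 also under plain CPM, and Cox6a1 and Ndufb7 also in GC bins. The GC and copy settings were chosen after seeing the data. The cause was not tested.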
